A study of Mus musculus with 6 samples.

Results

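The genes described here are 10 identity genes of blood endothelium, Pecam1, Cdh5, Plvap, Kdr, Flt1, Tek, Tie1, Egfl7, Emcn and Esam. They were taken by symbol from a count table of 18477 genes, all 10 were present, and all 10 were among the 14579 genes that passed the filter on low counts. The table holds RNA-seq of whole colon tissue from young male C57BL/6 mice with colitis induced by dextran sulfate sodium (DSS), a detergent-like polymer that injures the colonic epithelium. Mice of the DSS group (n = 3) drank DSS during the second week of the experiment and received PBS by daily gavage in both weeks, and mice of the DSS+BV group (n = 3) drank the same DSS and were gavaged daily with the gut commensal Bacteroides vulgatus. The 3 mice per group were drawn at random for sequencing, so each library is a separate animal. DSS was given to both groups, no colon without DSS is analysed here, and the stretch of colon sampled is not given in the sources used here. Libraries held between 15293276 and 17254343 expected counts, and levels are given as TMM-scaled counts per 1000000 (CPM).

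Blood endothelial cells line every vessel of the colon wall, from the arterioles to the fenestrated capillaries under the epithelium and the venules through which leukocytes leave the blood. They are held together by adherens and tight junctions, and their growth and quiescence are set by vascular endothelial growth factors (VEGF) acting on Kdr and Flt1 and by angiopoietins acting on Tek and its partner Tie1. The genes are not private to blood endothelium, since lymphatic endothelium carries several of them, platelets and many leukocytes carry Pecam1, and some monocytes carry Flt1. In RNA from whole tissue, fewer endothelial cells and less RNA per cell cannot be told apart.

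The promoter stretches of the member with the largest difference between the groups, Egfl7, and of the 2 with the smallest, Kdr and Flt1, are shown here to place the values that follow. Each runs from 250 to 31 bases before a RefSeq start in GRCm38.p6, is 220 bases long, is written 5′ to 3′ on the strand of the gene and overlaps no exon of GENCODE M21. The windows of Kdr and Flt1 lie inside the gene spans given below, which end at 75979072 and 147726438. For these minus-strand genes the start used is therefore not the outermost one. Capitals mark GGAAG or its reverse complement CTTCC, the core that ETS factors such as Erg and Fli1 can bind.
Egfl7 first start, chr2:26580833-26581052, plus strand: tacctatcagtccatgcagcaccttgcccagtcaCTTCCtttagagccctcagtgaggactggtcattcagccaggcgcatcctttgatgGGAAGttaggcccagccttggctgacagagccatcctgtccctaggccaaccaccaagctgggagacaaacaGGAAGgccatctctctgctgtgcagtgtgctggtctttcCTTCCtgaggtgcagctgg
Egfl7 second start, chr2:26583615-26583834, plus strand: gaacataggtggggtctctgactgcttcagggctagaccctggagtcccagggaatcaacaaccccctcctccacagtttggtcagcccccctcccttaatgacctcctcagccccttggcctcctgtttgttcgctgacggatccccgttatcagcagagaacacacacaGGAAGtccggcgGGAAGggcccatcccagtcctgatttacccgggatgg
Egfl7 last start, chr2:26586386-26586605, plus strand: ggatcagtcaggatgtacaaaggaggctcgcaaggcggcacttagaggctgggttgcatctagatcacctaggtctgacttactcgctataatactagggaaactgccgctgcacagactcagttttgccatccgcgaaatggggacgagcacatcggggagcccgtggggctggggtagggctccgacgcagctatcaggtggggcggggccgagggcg
Kdr, chr5:75978486-75978705, minus strand: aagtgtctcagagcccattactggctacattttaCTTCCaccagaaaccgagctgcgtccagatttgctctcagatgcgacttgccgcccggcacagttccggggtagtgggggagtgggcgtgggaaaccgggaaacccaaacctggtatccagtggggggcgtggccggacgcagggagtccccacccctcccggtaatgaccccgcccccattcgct
Flt1, chr5:147726042-147726261, minus strand: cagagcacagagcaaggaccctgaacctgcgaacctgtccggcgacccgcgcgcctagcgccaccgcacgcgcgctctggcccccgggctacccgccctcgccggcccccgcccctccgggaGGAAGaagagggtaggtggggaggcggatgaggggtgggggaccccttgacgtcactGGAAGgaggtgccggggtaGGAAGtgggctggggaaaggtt
Counted on either strand, with overlaps allowed, GGAAG occurred 4 times, 2 times and 0 times at the starts of Egfl7, 1 time at Kdr and 3 times at Flt1. RefSeq windows were found for 6 of the 10 genes, and 5 of the 6 held the motif in at least 1 window. The exception was Tek. Counted by window, 6 of the 8 windows of these genes held it. The motif is common, since 58.6% of all 32851 windows of this length held it. No entry was matched for Pecam1, Cdh5, Plvap and Esam.

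The libraries differed within the groups as well. Cd79b, a chain of the B cell receptor complex, measured 16.2, 2.36 and 30.2 CPM for replicates 1, 2 and 3 of DSS against 19.9, 0.764 and 1.52 CPM for those of DSS+BV, so DSS 2 and DSS+BV 1 stood apart from the rest of their groups. The values of the endothelial genes are therefore also given with libraries left out.

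All 10 genes were detected in every library, with 130 to 2730 expected counts. All 10 had a lower mean in DSS+BV than in DSS, and for none of them was the difference past the adjusted threshold of the main test. The log2 fold changes (DSS+BV against DSS, so that a negative value is lower with B. vulgatus) ran from -1.18 for Egfl7 to -0.15 for Flt1, with a median of -0.60. Over all tested genes the median was -0.01, 51.5% of genes lay below 0, and 15.9% lay at or below the median of the 10. By the quasi-likelihood test of edgeR, with Benjamini-Hochberg adjustment over all tested genes, 0 of the 10 were called at an adjusted p under 0.05 with a log2 fold change beyond 1 in size, beside 0.0892% of all tested genes called lower (13 genes) and 0 called higher. At an unadjusted p under 0.05, 4 of the 10 were lower (Cdh5, Plvap, Tie1 and Egfl7), beside 9.12% of all tested genes, and 0 were higher, beside 3.4%. The count of 4 was 7 without DSS 1 or without DSS+BV 1, 3 without DSS 3, and 2 without DSS+BV 2 or without DSS+BV 3. DESeq2, the tool of the study, called 1 of the 10 lower, Egfl7, beside 1.57% of the 17887 genes it tested, and 0 higher, beside 0.257%. The 17887 include genes that DESeq2 left without an adjusted p, which could not be called. The 3 DSS libraries lay wholly above the 3 DSS+BV libraries for the same 4 genes, beside 11.3% of all tested genes, and for 0 genes wholly below them, beside 6.37%.

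**Figure D1:**
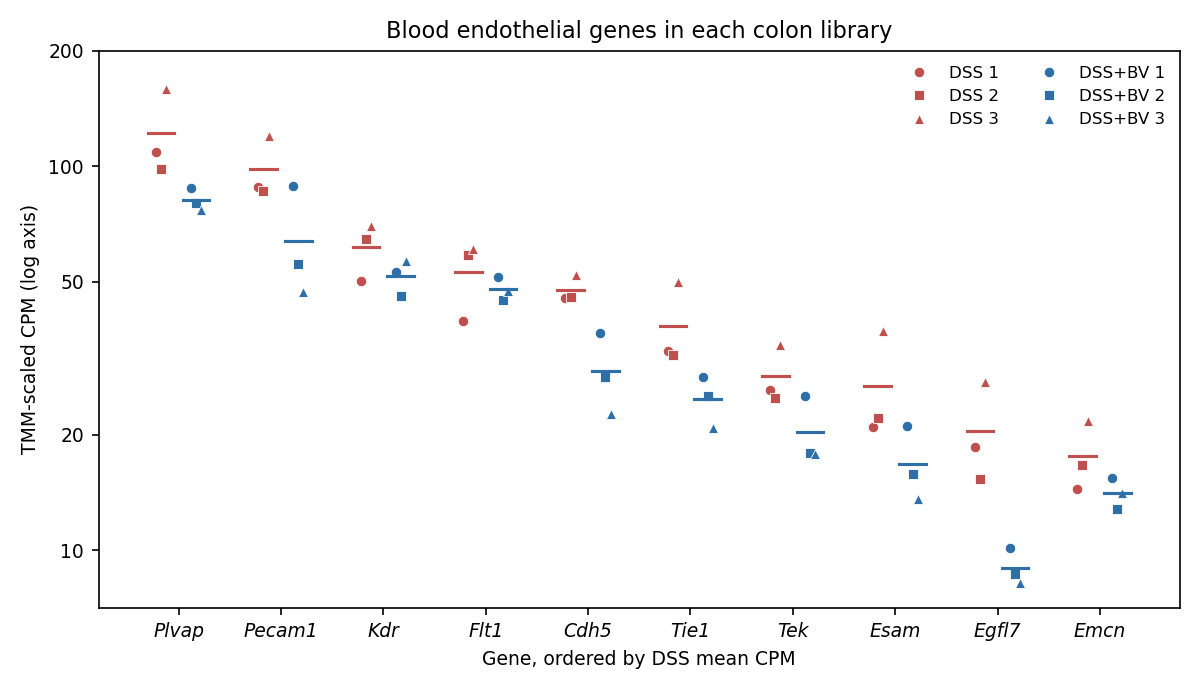
Points are the TMM-scaled CPM values (log axis) of each of the 10 genes in each library, red for DSS and blue for DSS+BV, with bars at the group means (n = 3 each). The groups are wholly apart for Plvap, Cdh5, Tie1 and Egfl7, and DSS 3 is the highest library for all 10 genes.

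Cdh5 (Entrez 12562, chr8:104101613-104144504) encodes VE-cadherin, the adhesion protein of endothelial adherens junctions. Its level, given here and in every later list of values in the order of replicates 1, 2 and 3, was 45.3, 45.6 and 52.2 CPM for the DSS mice against 36.9, 28.2 and 22.7 CPM for the DSS+BV mice. All 3 DSS+BV libraries were below all 3 DSS libraries, and the DSS libraries lay close together. Mean CPM was 47.7 ± 3.87 in DSS and 29.3 ± 7.14 in DSS+BV (SD, n = 3 each), with an edgeR log2 fold change of -0.71 (SE 0.201, 95% interval -1.19 to -0.23, edgeR adjusted p = 0.316).

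Pecam1 (Entrez 18613, chr11:106654213-106715281), also known as CD31, is an adhesion molecule of endothelial cell contacts. Its CPM was 88.6, 86.0 and 120 in the DSS libraries and 89.0, 55.7 and 47.0 in the DSS+BV libraries. DSS+BV 1 lay among the DSS libraries, so the groups overlapped, while DSS+BV 2 and 3 were below all of them. The log2 fold change was -0.62 (SE 0.269, 95% interval -1.26 to 0.02, edgeR adjusted p = 0.410). It was -0.92 without DSS+BV 1 and -0.44 without DSS+BV 3.

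Esam (Entrez 69524, chr9:37528089-37538319) encodes an adhesion molecule of endothelial tight junctions that platelets also carry. It was measured at 21, 22.1 and 37.3 CPM in the DSS mice and at 21, 15.8 and 13.6 CPM in the DSS+BV mice. DSS 3 stood far above the other 5 libraries, and DSS+BV 1 was level with DSS 1. The log2 fold change of -0.67 (SE 0.289, 95% interval -1.36 to 0.02, edgeR adjusted p = 0.406) was -0.36 without DSS 3.

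Plvap (Entrez 84094, chr8:71497753-71511806) forms the diaphragms of fenestrae and caveolae, and had the highest level per kilobase of the 10. Its CPM was 109, 98.2 and 159 in DSS and 87.9, 80.2 and 76.9 in DSS+BV. The groups did not overlap, although the lowest DSS library was 10.5% of its own value above the highest DSS+BV library. Mean CPM was 122 ± 32.5 in DSS and 81.6 ± 5.63 in DSS+BV (SD, n = 3 each), with an edgeR log2 fold change of -0.58 (SE 0.202, 95% interval -1.06 to -0.10, edgeR adjusted p = 0.358). Without DSS 3 it was -0.34.

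Emcn (Entrez 59308, chr3:137341062-137431069) encodes endomucin, a sialomucin of capillary and venous endothelium. It lay at 14.5, 16.7 and 21.8 CPM in the DSS mice and at 15.4, 12.8 and 14.1 CPM in the DSS+BV mice. The groups overlapped, with DSS 1 below DSS+BV 1. The log2 fold change was -0.32 (SE 0.210, 95% interval -0.82 to 0.18, edgeR adjusted p = 0.562), and -0.14 without DSS 3.

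Among the VEGF receptors, Kdr (Entrez 16542, chr5:75932827-75979072) encodes VEGFR2, the main signalling receptor for VEGF-A. Its CPM was 50.3, 64.8 and 70.0 in DSS and 53.0, 45.9 and 56.8 in DSS+BV. DSS 1 lay inside the DSS+BV range. The log2 fold change was -0.25 (SE 0.167, 95% interval -0.65 to 0.15, edgeR adjusted p = 0.571), an interval in which the level in DSS is between 0.902 and 1.57 times that in DSS+BV. It was -0.38 without DSS 1, -0.16 without DSS+BV 2 and -0.15 without DSS 3.

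Flt1 (Entrez 14254, chr5:147561604-147726438) encodes VEGFR1, which binds VEGF-A, VEGF-B and placental growth factor and also exists as a soluble form. It stood at 39.5, 58.9 and 61.0 CPM in the DSS mice and at 51.4, 44.9 and 47.2 CPM in the DSS+BV mice. The lowest and the highest of the 6 values were both DSS libraries, so the DSS range enclosed the DSS+BV range. The log2 fold change was -0.15 (SE 0.191, 95% interval -0.61 to 0.31, edgeR adjusted p = 0.770), the smallest of the 10, and was -0.33 without DSS 1, -0.06 without DSS 2 and -0.04 without DSS 3.

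The ratio of Kdr to Flt1 counts was 1.27, 1.10 and 1.15 in DSS and 1.03, 1.02 and 1.2 in DSS+BV. The ratios overlapped, and the mean log2 ratio differed by -0.11 (two-sided exact permutation p = 0.3, 0.4 after Benjamini-Hochberg adjustment over the 2 receptor pairs compared). The difference was -0.05 without DSS 1, -0.07 without DSS+BV 2 and -0.19 without DSS+BV 3. With 3 libraries against 3 the smallest p that this test can give is 0.1.

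Of the angiopoietin receptors, Tie1 (Entrez 21846, chr4:118471191-118489849) is an orphan receptor that modulates Tek. It was at 33.1, 32.3 and 49.9 CPM in the DSS mice and at 28.2, 25.3 and 20.8 CPM in the DSS+BV mice. All DSS+BV libraries were below all DSS libraries. Mean CPM was 38.4 ± 9.93 in DSS and 24.8 ± 3.74 in DSS+BV (SD, n = 3 each), with an edgeR log2 fold change of -0.63 (SE 0.224, 95% interval -1.17 to -0.10, edgeR adjusted p = 0.358). Without DSS 3 it was -0.40.

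Tek (Entrez 21687, chr4:94739086-94874976) encodes TIE2, the receptor that angiopoietin 1 activates and angiopoietin 2 mostly antagonises. Its CPM was 26.2, 25.0 and 34.2 in DSS and 25.2, 18.0 and 17.8 in DSS+BV. DSS+BV 1 was just above DSS 2, and the other 2 DSS+BV libraries were below every DSS library. The log2 fold change was -0.49 (SE 0.213, 95% interval -1.0 to 0.02, edgeR adjusted p = 0.415), and -0.33 without DSS 3. The ratio of Tek to Tie1 counts was 0.793, 0.774 and 0.686 in DSS and 0.893, 0.712 and 0.858 in DSS+BV. These ratios overlapped, with a mean log2 difference of 0.12 (two-sided exact permutation p = 0.4, adjusted 0.4 over the 2 pairs). It was 0.06 without DSS 3 or without DSS+BV 1, and 0.22 without DSS+BV 2.

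Egfl7 (Entrez 353156, chr2:26581083-26592682) encodes a secreted protein of the endothelial matrix and carries the endothelial microRNA gene Mir126a within its locus. It had the largest difference of the 10. Its CPM was 18.6, 15.4 and 27.5 in DSS and 10.2, 8.66 and 8.22 in DSS+BV, from 247 to 472 expected counts in DSS and from 130 to 154 in DSS+BV. The highest DSS+BV library lay 33.9% below the lowest DSS library, the widest gap of the 4 genes whose groups were apart. Mean CPM was 20.5 ± 6.29 in DSS and 9.01 ± 1.02 in DSS+BV (SD, n = 3 each), with an edgeR log2 fold change of -1.18 (SE 0.261, 95% interval -1.81 to -0.56), or 2.27 times more in DSS (95% interval 1.47 to 3.5). The edgeR adjusted p was 0.229, and DESeq2 gave a log2 fold change of -1.16 (SE 0.300) with an adjusted p of 0.00786. The call therefore differed between the tools. With 1 library left out the edgeR value lay between -1.34 (without DSS 2) and -0.91 (without DSS 3).

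Egfl7 is also the member whose annotated exons touch other genes. In GENCODE M21 its exons of all transcripts, 3581 bases in all, share 64 bases with Agpat2 on the opposite strand, 264 bases with the gene model Gm20532 on the same strand, 73 bases with the hairpin of Mir126a (chr2:26591357-26591429) and 58 bases with the hairpin of Mir126b on the opposite strand. The table has a row for Agpat2, a lipid acyltransferase, and none for the others. Agpat2 stood at 118, 140 and 151 CPM in the DSS mice and at 117, 176 and 217 CPM in the DSS+BV mice, with a log2 fold change of 0.32 (SE 0.240, edgeR adjusted p = 0.617), so the 2 neighbours differed in sign. How reads in the shared bases were assigned is not given in the sources used here, and the microRNA itself has no value in these data.

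Set against the VEGF receptors in the same library, Egfl7 also stood apart from them. The ratio of Egfl7 to Flt1 counts was 0.472, 0.262 and 0.451 in DSS and 0.199, 0.195 and 0.176 in DSS+BV. The ratio of Egfl7 to Kdr counts was 0.371, 0.239 and 0.394 in DSS and 0.194, 0.191 and 0.147 in DSS+BV. In both ratios every DSS library was above every DSS+BV library. These pairs were chosen after the values were seen and were not tested.

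**Figure D2:**
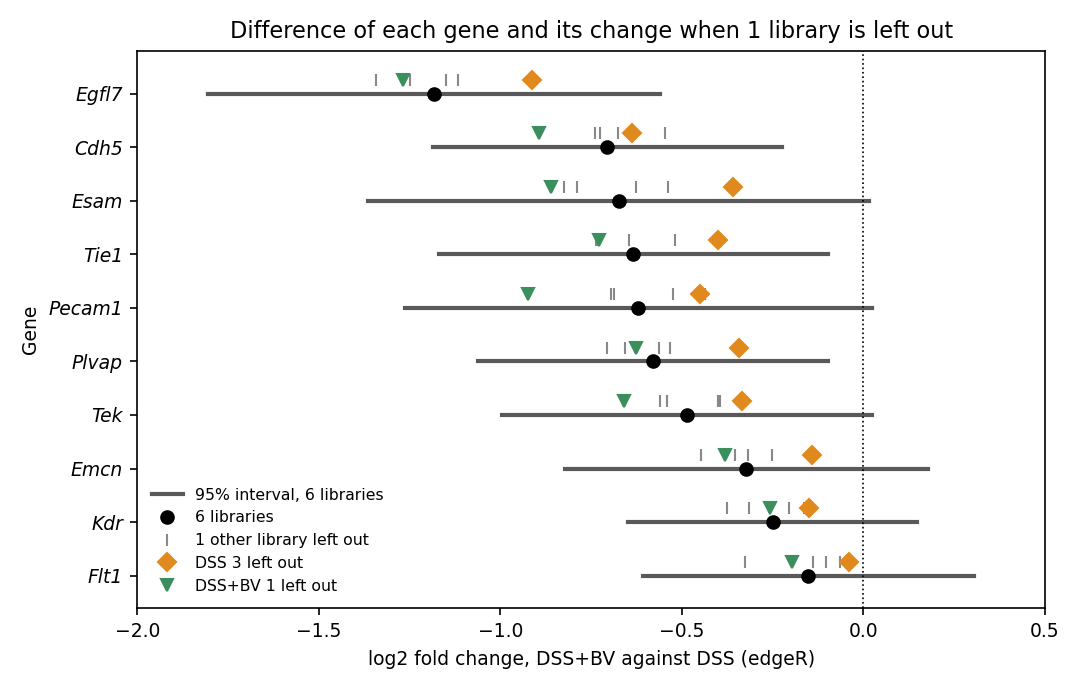
Black points and lines are the edgeR log2 fold change of each gene and its 95% interval, and marks above them are the value with 1 library left out, with DSS 3 (orange diamond) and DSS+BV 1 (green triangle) picked out. Every mark lies below 0, and leaving out DSS 3 gave the value nearest to 0 for 8 of the 10 genes.

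Levels between genes were compared per kilobase of merged exons. In DSS, Plvap led with 61.4 ± 16.3 CPM per kb, followed by Pecam1 with 23.8 ± 4.57, Esam with 14.4 ± 4.89 and Cdh5 with 11.9 ± 0.969 (SD, n = 3). Egfl7 (10.9 ± 3.35), Kdr (10.4 ± 1.72), Tie1 (8.45 ± 2.18), Emcn (6.82 ± 1.45), Tek (6.05 ± 1.06) and Flt1 (4.85 ± 1.09 CPM per kb) came after them. Of the 9 neighbouring pairs in this order, only Plvap and Pecam1, and Pecam1 and Esam, had ranges that did not overlap over the 3 DSS libraries. In DSS+BV the first 3 places were the same, at 41.1, 15.5 and 9.01 CPM per kb. Egfl7 held the fifth place in DSS and the eighth in DSS+BV, where it stood at 4.80 CPM per kb. Kdr, at 8.76 CPM per kb, came after Esam there.

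The 10 genes shared a library pattern that was not only a difference between groups. All 10 were highest in DSS 3, the library in which 29.8% of all tested genes were highest. DSS+BV 3 was the lowest library for 7 of them, DSS+BV 2 for Kdr and Emcn, and DSS 1 for Flt1. Within DSS+BV, replicate 1 was the highest for 9 of the 10, Kdr excepted, beside 38.6% of all tested genes. On a log2 scale centred on each gene's own mean, the mean of the 10 was 0.08, 0.14 and 0.60 in DSS and -0.04, -0.36 and -0.42 in DSS+BV. DSS+BV 1 therefore lay nearer to DSS 1 than to the other DSS+BV libraries. The summed level of the 10 was 446, 465 and 633 CPM in the DSS mice and 418, 335 and 325 CPM in the DSS+BV mice. The median log2 fold change of the 10 was -0.35 without DSS 3, -0.70 without DSS 2 and -0.69 without DSS+BV 1.

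**Figure D3:**
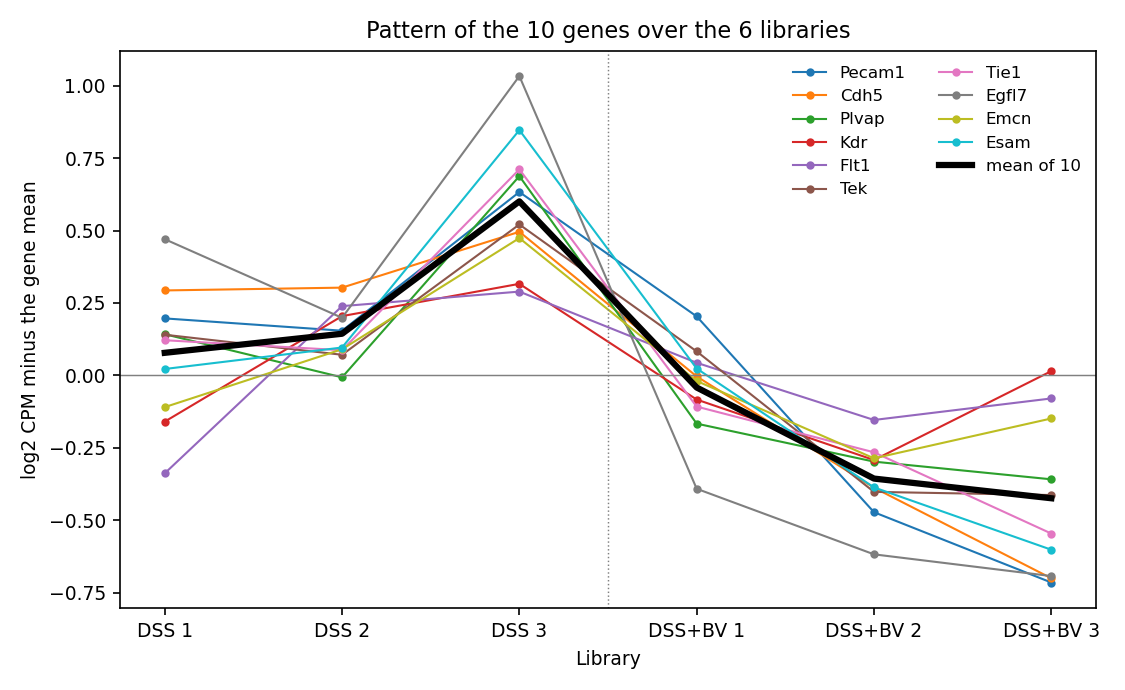
The vertical axis is log2 CPM minus the gene's mean over the 6 libraries, with 1 coloured line per gene and the mean of the 10 in black, and lines only join the points of a gene. The black line peaks in DSS 3 at 0.60 and is lowest in DSS+BV 3 at -0.42, and Egfl7 has the widest range.

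Likeness was measured as the root mean square distance between these centred log2 values over the 6 libraries. Tek (0.0746), Tie1 (0.0864) and Plvap (0.0980) lay nearest to the mean of the 10, while Flt1 (0.273) and Egfl7 (0.318) lay farthest from it. The closest pairs were Plvap with Tie1 (0.0907), Tie1 with Esam (0.103), Kdr with Emcn (0.109) and Kdr with Flt1 (0.114), and the most distant pair was Flt1 with Egfl7 (0.576). Among the tested genes outside the 10, the 5 nearest to their mean pattern were Bnip2 (0.0253), Foxf1 (0.0360), Nucb2 (0.0397), Fam216a (0.0432) and Tacc1 (0.0463). All 5 lay nearer to it than Tek, the nearest of the 10, so some genes outside the 10 share the pattern. The 5 were picked as the nearest of all tested genes, and the share of genes this near was not counted. Foxf1, a forkhead transcription factor of gut mesenchyme and endothelium, stood at 29.5, 30.6 and 41.1 CPM in the DSS mice and at 28.3, 21.8 and 21.5 CPM in the DSS+BV mice.

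The ligands and other receptors of the VEGF and angiopoietin families made up 12 genes, of which 11 had negative log2 fold changes and 0 were called by edgeR. At an unadjusted p under 0.05, 6 of them were lower, beside 9.12% of all tested genes. DESeq2 called 1 lower, Angpt2, beside 1.57% of the genes it tested. The median log2 fold change was -0.55. It was -0.87 without DSS+BV 1, and -0.25 where genes under 50 counts in 3 libraries were left out.

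The ligands of the 4 receptors differed among themselves. Vegfa, the main ligand of Kdr, stood at 54.7, 133 and 120 CPM in the DSS mice and at 67.5, 90.7 and 121 CPM in the DSS+BV mice, with a log2 fold change of -0.14 and fully overlapping groups. Vegfb, a ligand of Flt1, was the exception in sign, at 7.6, 9.01 and 7.98 CPM in the DSS mice and 9.30, 12.2 and 12.6 CPM in the DSS+BV mice (log2 fold change 0.47, edgeR adjusted p = 0.425). Its DSS+BV libraries all lay above its DSS libraries. Pgf, the placental growth factor that also binds Flt1, was at 2.1, 3.42 and 4.66 CPM in the DSS mice and 1.45, 1.53 and 1.2 CPM in the DSS+BV mice (-1.28, edgeR adjusted p = 0.323).

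Angpt2, the angiopoietin that endothelial cells release on activation, had the largest difference of the 12. It stood at 6.77, 16.2 and 12.8 CPM in the DSS mice and at 4.02, 3.76 and 2.91 CPM in the DSS+BV mice, a log2 fold change of -1.74 (SE 0.365, edgeR adjusted p = 0.216). The groups did not overlap, and DESeq2 gave an adjusted p of 0.00224. Angpt1, the activating ligand of Tek made by perivascular cells, was at 4.43, 7.40 and 6.81 CPM in the DSS mice and 3.63, 1.85 and 2.97 CPM in the DSS+BV mice (-1.14, edgeR adjusted p = 0.329). Angpt4 was near 1 CPM or below in all 6 libraries, with a log2 fold change of -1.01.

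Vegfd and Vegfc are the lymphangiogenic ligands. Vegfd was at 3.65, 4.85 and 3.20 CPM in the DSS mice and 1.98, 1.85 and 0.632 CPM in the DSS+BV mice (-1.39, edgeR adjusted p = 0.347), while the groups of Vegfc overlapped (log2 fold change -0.27). Flt4, their receptor VEGFR3, stood at 36.1, 30.8 and 45.2 CPM in the DSS mice and at 27.7, 19.6 and 15.4 CPM in the DSS+BV mice (-0.84, edgeR adjusted p = 0.329). The co-receptors Nrp1 and Nrp2 and the phosphatase Ptprb, which acts on Tek and Cdh5, had log2 fold changes of -0.14, -0.10 and -0.20, with overlapping groups.

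Beyond the 10, the 9 companion lists of blood vessels held 80 different genes, of which 79 were tested. The lymphatic list was not among the 9. Flt4, which stands in it, and the lymphangiogenic ligands Vegfc and Vegfd were counted through the VEGF and angiopoietin list. The median log2 fold change of the 79 was -0.60 (-0.38 without DSS 3), and 71 were below 0, beside 51.5% of all tested genes. At an unadjusted p under 0.05, 32 were lower, beside 9.12%, and 0 were higher, beside 3.4%. By edgeR 1 was called, Col4a2, beside 0.0892% of all tested genes called lower. Col4a2, a collagen chain of basement membranes that other cells also make, fell from 344, 334 and 383 CPM in DSS to 147, 114 and 127 CPM in DSS+BV, a log2 fold change of -1.45 (SE 0.151, edgeR adjusted p = 0.0424). It was not called with any 1 library left out. DESeq2 called 6 of the 79 lower, beside 1.57% of the genes it tested. The counts in the lists that follow are to be read beside these same shares.

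Of 20 other pan-endothelial genes, 18 were below 0 with a median of -0.47 (-0.31 without DSS 3), 0 were called by edgeR or by DESeq2, and 6 had an unadjusted p under 0.05. Here and in the lists after it, values in brackets are log2 fold changes and the leading genes are those with the smallest p. They were Vwf, the clotting factor carrier of Weibel-Palade bodies (-0.68), the guidance receptor Robo4 (-0.81) and the TGF-beta co-receptor Eng (-0.67). Their edgeR adjusted p-values were 0.222, 0.27 and 0.300. Vwf stood at 77.7, 73.5 and 84.8 CPM in the DSS mice and at 54.1, 40.8 and 52.2 CPM in the DSS+BV mice, with no overlap. All 12 endothelial transcription factors were below 0 with a median of -0.53, which was -0.21 without DSS 3, -0.34 without DSS+BV 3 and -0.81 without DSS+BV 1. Elk3 (-0.80), Erg (-0.70) and Sox18 (-0.68) had the smallest p-values. At an unadjusted p under 0.05, 2 of the 12 were lower, beside 9.12% of all tested genes, and 0 were called by either tool.

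The segments of the vessel tree were covered by shorter lists, in which edgeR called 0 genes. At an unadjusted p under 0.05, 2 arterial, 3 venous, 1 capillary and 4 tip cell genes were lower, beside 9.12% of all tested genes. DESeq2 called Selp and Angpt2. The 7 arterial genes had a median of -0.47 (-0.31 without DSS 3), led by Sema3g (-0.66), Hey1 (-0.77) and Gja4 (-0.85). The 4 venous genes had a median of -0.80. Selp, the P-selectin that captures leukocytes on venules and that platelets also store, stood at 40.4, 27.5 and 49.0 CPM in the DSS mice and at 11.3, 7.90 and 4.99 CPM in the DSS+BV mice. Its log2 fold change was -2.27 (SE 0.359), the largest of the endothelial lists, with an edgeR adjusted p of 0.134 and a DESeq2 adjusted p of 9.72e-07. Nr2f2 (-0.57) and Ackr1 (-1.03) followed it. The 3 capillary genes had a median of -0.22 (-0.34 without DSS 1 and -0.06 without DSS 3), with Gpihbp1 at -0.89, Cd300lg at -0.22 and Rgcc at 0.11. The 7 tip cell genes had a median of -0.82, led by Nid2 (-0.82), Angpt2 and Pgf, which also stand in other lists.

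The 6 lymphatic genes were all below 0 with a median of -0.86, and their summed level was 221 to 362 CPM in the DSS mice and 121 to 223 CPM in DSS+BV. Pdpn (-1.16), Reln (-0.89) and Flt4 led them, with 0 called by edgeR, 4 lower at an unadjusted p under 0.05, and 1, Pdpn, called by DESeq2. Pdpn is shared with fibroblasts. Of the 9 mural genes, which mark pericytes and vascular smooth muscle, 8 were tested with a median of -0.56, 0 called by edgeR, 3 lower at an unadjusted p under 0.05, and 2 called by DESeq2 (Abcc9 and Kcnj8). The ATP-sensitive potassium channel genes Abcc9 and Kcnj8 differed most. Abcc9 was at 122, 168 and 148 CPM in the DSS mice and 48.1, 62.4 and 44.9 CPM in the DSS+BV mice (-1.50, SE 0.189, edgeR adjusted p = 0.0833). Kcnj8 gave -1.65 and Pdgfrb -0.68. The 9 basement membrane genes had a median of -0.80, with 1 called by edgeR, 8 lower at an unadjusted p under 0.05, and 2 called by DESeq2. For all 9 the DSS+BV libraries lay wholly below the DSS libraries, beside 11.3% of all tested genes.

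**Figure D4:**
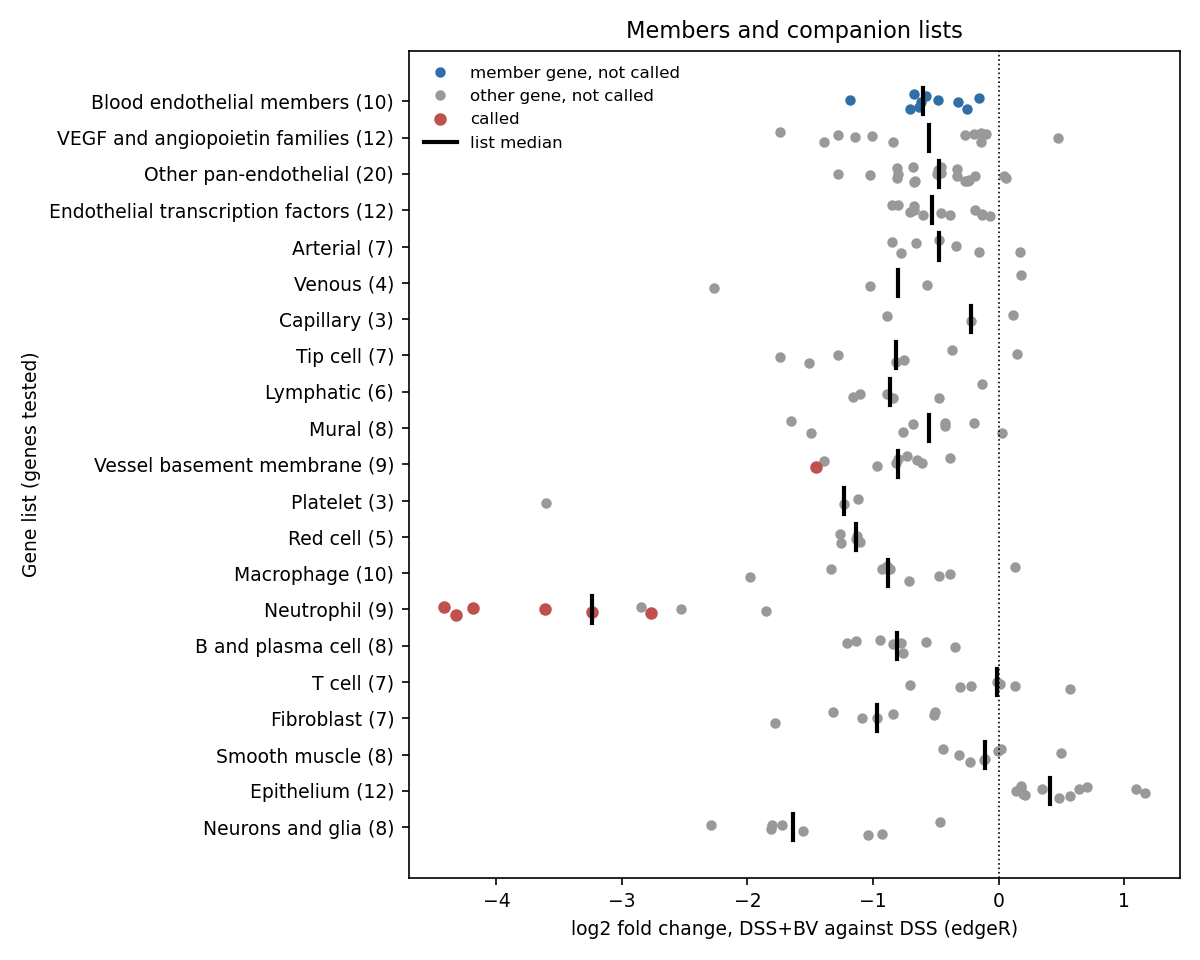
Each point is the edgeR log2 fold change of a tested gene, with the 10 blood endothelial genes in blue, called genes in red and list medians as black bars. The medians of the endothelial, mural and basement membrane lists lie between -0.22 and -0.86, the neutrophil list lies at -3.24 and the epithelial list at 0.41, and some genes stand in more than 1 list.

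Marker lists of other cell types were compared in the same fit. All 12 epithelial genes were above 0, with a median of 0.41. By edgeR 0 were called and 4 were higher at an unadjusted p under 0.05, and DESeq2 called 0. Their summed level was 12319 to 20919 CPM in the DSS mice and 21714 to 33349 CPM in DSS+BV. The 9 neutrophil genes were all below 0 with a median of -3.24, and edgeR called 6 (S100a8, S100a9, Mmp9, Mmp8, Cxcr2 and Retnlg) and DESeq2 all 9. With 1 library left out, edgeR called no more than 3 genes lower in the whole table. Their sum was 152 to 193 CPM in the DSS mice and 13.9 to 27.2 CPM in DSS+BV. The 7 fibroblast genes had a median of -0.97, led by Col3a1, Col1a1 and Col1a2, with sums of 3913 to 4185 CPM in the DSS mice and 1431 to 2080 CPM in DSS+BV. Of these 7, edgeR called 0 and DESeq2 called 3. The 8 smooth muscle genes had a median of -0.11, from -0.22 (without DSS+BV 1) to -0.02 (without DSS+BV 3), with overlapping sums of 3555 to 4425 CPM and 2754 to 4251 CPM. The part of tissue makeup in the lower endothelial values was not tested.

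Lists of leukocytes, platelets, red cells, neurons and glia were looked at next. Some of these cells share some of the 10 genes. The 10 macrophage genes summed to 1397, 919 and 1944 CPM in DSS and to 1375, 627 and 599 CPM in DSS+BV. Like the summed level of the 10 endothelial genes, this sum was highest in DSS 3 and, within DSS+BV, in replicate 1. Unlike it, the macrophage sum was lower in DSS 2 than in DSS+BV 1. Cd163 (-1.98), Mrc1 (-1.33) and Csf1r (-0.90) led the macrophage list. Of these, Cd163 and Mrc1 were highest in DSS 1, at 90.0 and 151 CPM against 69.7 and 142 CPM in DSS 3. The list median was -0.88, -0.57 without DSS 3 and -1.33 without DSS+BV 1. Of the 10 macrophage genes, edgeR called 0 and DESeq2 called 2. The summed level of the 8 B and plasma cell genes also peaked in DSS 3 and, within DSS+BV, in replicate 1. It was 707, 558 and 1676 CPM in the DSS mice and 1191, 270 and 249 CPM in the DSS+BV mice. Jchain made up most of this sum, at 1378 CPM in DSS 3, while Pax5 was highest in DSS+BV 1 (29.0 CPM against 17.6 in DSS 3). The median of these 8 genes was -0.81. With 1 library left out it lay between -3.91 (without DSS+BV 1) and -0.15 (without DSS 3). The 7 T cell genes had a median of -0.01, from -0.46 (without DSS+BV 1) to 0.31 (without DSS 3). The platelet list, of which 3 of 5 genes were tested, summed to 25.3, 21.3 and 42.2 CPM in the DSS mice and 13.8, 11.1 and 11.3 CPM in the DSS+BV mice. Its median was -1.23, all 3 tested genes were lower at an unadjusted p under 0.05, and DESeq2 called 1. The 5 red cell genes, which include near-identical globin copies, had a median of -1.13, which was -0.70 without DSS+BV 1. They summed to 235, 212 and 432 CPM in the DSS mice and 41.7, 176 and 177 CPM in the DSS+BV mice. DSS+BV 1 was thus the lowest library for red cell genes. The 8 genes of neurons and glia had a median of -1.64, with Gfap and Elavl4 among the leading genes, and of -0.81 without DSS 3. Of these 8, edgeR called 0 and DESeq2 called 3. No gene of these lists was at 0 in all 6 libraries, and what part blood cells had in the endothelial values was not tested.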

How the data were processed

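Colon RNA of 3 DSS and 3 DSS+BV mice was sequenced on a DNBSEQ-T7 instrument. The authors quantified genes with RSEM and deposited the expected counts of each gene unscaled. The submitters' processing notes name HISAT2 2.1.0, Bowtie2 2.2.5, RSEM 1.2.8 and the build GRCm38.p6. The annotation and strand setting are not given in the sources used here.

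Expected counts were rounded, filtered with filterByExpr (minimum count 10, minimum total 15) and TMM-scaled. DSS+BV was set against DSS, unpaired, by quasi-likelihood F-tests (edgeR 4.0.16, R 4.3.3), and p-values were adjusted by Benjamini-Hochberg over 14579 genes. Calls needed an adjusted p under 0.05 with a log2 fold change beyond 1 in size. Intervals are 95% t intervals on the moderated degrees of freedom. CPM is the rounded count relative to the TMM-scaled total of the tested genes. Centred values used log2 CPM with a prior count of 2. Receptor ratios were tested by exact permutation. Alternatives were DESeq2 1.42.0, RLE, upper-quartile and no factors, 2 other filters, a robust fit, no threshold on the fold change, a replicate block, another prior count for the ratios and each library left out. The scripts were tested on simulated counts. Of genes simulated with a 2-fold difference, edgeR called 12% and DESeq2 23.3% at the thresholds used here. A 2-fold difference lies exactly at the fold change threshold, which by itself keeps many such genes from a call. Of genes simulated with a 4-fold difference, edgeR called 67.3% and DESeq2 83.3%. Of genes simulated without a difference, edgeR called 0.0811% and DESeq2 0.427%.

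The members and the 20 companion lists (168 entries) were chosen with earlier results of these data known. Named genes are the 10 members, the VEGF and angiopoietin list, the called genes of every other list or else up to 3 with the smallest unadjusted p, and the 5 genes nearest to the mean pattern. A gene that this rule names is not reported here. Agpat2, Pax5 and the ratios of Egfl7 were added after values were seen. RefSeq gave the gene positions and promoter windows, and GENCODE M21 the exon lengths, both on GRCm38.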

Additional observations from a re-analysis of the deposited data

How the results depend on the processing

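All 150 values of the 10 genes under 15 alternatives were below 0, and the edgeR adjusted p-values among them ran from 0.156 to 0.984. The alternatives reuse the same libraries and are not independent. The robust fit and the setting without a fold change threshold leave the main log2 fold changes as they are. Called members were 0 in every edgeR alternative and 1 (Egfl7, log2 fold change -1.16) with DESeq2. DESeq2 also called 281 genes lower and 46 higher over the whole table, and 6 of the other blood vessel genes lower. Members lower at an unadjusted p under 0.05 numbered 7 with upper-quartile factors, 7 with library totals alone, and 2 to 7 with 1 library left out. Leaving out 1 library gave 0 to 3 genes called lower in the whole table, 0 to 4 called higher, and 0 called among the other blood vessel genes. The median of the 10 then lay between -0.70 and -0.35, the latter without DSS 3. Of the other blood vessel genes 0 were called when at least 50 counts in 3 libraries were required. Scaling by library totals alone moved the median of all genes to -0.07. The labels give both groups the same replicate numbers. Deviations of same-numbered libraries from their group means had correlations of 0.267, 0.255 and -0.30. Libraries of different numbers were not correlated, so these values cannot decide whether the numbers mark pairs. The main test took the libraries as unpaired. With the replicate block 0 genes of the whole table and 0 of the other blood vessel genes were called lower, and the median of the 10 was -0.58. With 3 animals per group, the 95% intervals of 6 of the 10 genes include 0.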
